A study of Mus musculus with 9 samples.

Results

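The BCL2 family genes were followed in mouse lung tumour cells grown with or without added macrophage-lineage cells. The members are the listed genes Bcl2l1, Mcl1, Bcl2l2, Bax, Bak1, Bid, Bad, Bcl2l11, Bbc3 and Bik, looked up by name among the gene rows of the table of values. Of the 10 genes, 9 were found among the 12339 genes of the table, and all 9 passed the filter on low values that left 12326 genes for testing. Bik, a BH3-only gene, was not analysed here.

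All libraries hold RNA of GFP-positive KP-GFP tumour cells (strain C57BL/6), which had been grown as spheroids, a 3-dimensional culture, and were sorted at day 7. The 3 groups of 3 libraries are tumour cells grown with lung tissue-resident macrophages (TRMs, alveolar macrophages), tumour cells grown with bone-marrow monocytes, and tumour cells grown alone. Each spheroid started from 2500 tumour cells, with 5000 TRMs or 5000 monocytes in the co-cultures, and 32 spheroids were pooled per condition. The comparisons ask how the tumour cells change next to each added population. The labels do not say that replicates came from separate cultures, so p-values measure the spread between these libraries, which may be technical.

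The BCL2 family decides whether mitochondria release the proteins that start the caspase cascade of cell death. Pro-survival members (Bcl2l1, which encodes BCL-XL, Mcl1, and Bcl2l2, which encodes BCL-W) bind and hold back the effectors Bax and Bak1, which otherwise make pores in the outer mitochondrial membrane. BH3-only members (Bid, Bad, Bcl2l11, which encodes BIM, and Bbc3, which encodes PUMA) bind the pro-survival proteins, and some also activate the effectors. Much of this control acts on proteins and on splice forms, and Bcl2l1 and Mcl1 each give a long pro-survival and a short pro-death form. A single value per gene adds these forms together.

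The 3 members with a called difference in either co-culture are Mcl1, Bcl2l11 and Bid, and their start-site regions are shown because the results below turn on them. Each sequence (build GRCm38.p6) runs 5′ to 3′ from 250 bases before to 50 bases after the RefSeq start of the gene. The annotation used below for exon lengths can place the start elsewhere, for Mcl1 at base 95658788, beyond the end of its window. Mcl1 lies at chr3:95658471-95658770 on the plus strand, Bcl2l11 at chr2:128125788-128126087 on the plus strand, and Bid at chr6:120916775-120917074 on the minus strand. Capitals mark matches, on either strand, to the motifs searched.
Mcl1: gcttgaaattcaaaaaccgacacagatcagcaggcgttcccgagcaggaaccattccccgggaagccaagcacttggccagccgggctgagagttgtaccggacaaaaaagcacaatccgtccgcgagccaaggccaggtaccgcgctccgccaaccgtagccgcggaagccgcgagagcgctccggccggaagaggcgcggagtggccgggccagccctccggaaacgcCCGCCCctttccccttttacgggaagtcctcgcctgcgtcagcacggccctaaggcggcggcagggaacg
Bcl2l11: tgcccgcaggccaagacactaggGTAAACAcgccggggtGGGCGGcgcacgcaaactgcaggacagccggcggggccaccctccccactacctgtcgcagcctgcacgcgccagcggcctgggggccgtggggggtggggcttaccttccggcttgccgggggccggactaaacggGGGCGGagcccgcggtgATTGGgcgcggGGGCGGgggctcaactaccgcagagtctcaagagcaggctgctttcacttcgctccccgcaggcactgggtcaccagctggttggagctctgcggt
Bid: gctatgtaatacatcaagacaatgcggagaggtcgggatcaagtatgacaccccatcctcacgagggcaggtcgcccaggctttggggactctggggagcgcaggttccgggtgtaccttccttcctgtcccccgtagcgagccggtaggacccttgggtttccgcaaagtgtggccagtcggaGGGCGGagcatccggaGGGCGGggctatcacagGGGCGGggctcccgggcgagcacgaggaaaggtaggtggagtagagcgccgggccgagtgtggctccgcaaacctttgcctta

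The motifs searched in these 300 bases, on both strands, were the GC box GGGCGG, the CCAAT box CCAAT, the TATA box TATAAA, the E-box CACGTG, the hypoxia response core ACGTG (which lies inside the E-box), the AP-1 site TGANTCA, the CRE TGACGTCA and the FOXO site GTAAACA. The Mcl1 window held 1 GC box. The Bcl2l11 window held 3 GC boxes, 1 CCAAT box and 1 FOXO match, and the Bid window held 3 GC boxes. Among the most upstream windows of the 9 members, 7 held a GC box, against 35.7% of 32851 windows of the same length, and 1 held a FOXO match, against 3.65%. A CCAAT box was in 1 of the 9, against 37.4%, an E-box in 1, against 7.15%, and the hypoxia response core in 1, against 19.6%. The TATA box (13.6% of all windows), AP-1 site (7.81%) and CRE (1.79%) were in none of them. The 32851 windows include further starts of the same genes, so the shares are not strictly alike. The GC content was 65.7% for Mcl1, 71.0% for Bcl2l11 and 63.3% for Bid, with a median of 52.7% over all windows. These matches describe the letters in the windows and no binding was measured.

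Recovered reads per library lay between 16001895 and 32771448. Gene values below are the deposited normalised values, in CPM (reads plus 0.5, divided by the scaled library size and multiplied by a constant). Group values are mean ± SD over n = 3 libraries, and adjusted p-values are limma's, adjusted over all genes tested. Tumour cell identity was checked with 9 epithelial markers, whose summed values were 15390 to 19430 CPM with TRMs, 10560 to 16580 CPM with monocytes and 15350 to 17270 CPM alone. Of these 9 markers 1 fell with TRMs, where 8.15% of all genes fell, and 4 fell with monocytes, where 12.7% of all genes fell. With monocytes these were the adhesion gene Cdh1 (log2 -0.96), the tight junction genes Cldn7 (-1.09) and Cldn4 (-1.06) and the transcription factor gene Elf3 (-0.74), with limma adjusted p between 0.00173 and 0.0393. With TRMs it was Cldn4 (log2 -0.72, limma adjusted p = 0.0477). The Cldn4 call with TRMs was lost in edgeR (0.0705) and when alone replicate 1 (0.167), alone replicate 3 (0.125), TRM replicate 2 (0.164), TRM replicate 3 (0.188) or monocyte replicate 2 (0.0619) was dropped. The Elf3 call with monocytes was lost when alone replicate 1 (0.145), alone replicate 3 (0.12), TRM replicate 2 (0.0532), monocyte replicate 1 (0.11) or monocyte replicate 2 (0.111) was dropped. Epcam, an epithelial adhesion gene, averaged 635 ± 166 CPM with TRMs, 386 ± 131 CPM with monocytes and 566 ± 85.1 CPM alone and did not pass the test. The 20 analysed myeloid markers of 30 listed summed to 180.9 to 343.0 CPM with TRMs, 194.4 to 260.5 CPM with monocytes and 177.5 to 264.2 CPM alone. Of these, 2 rose with TRMs, where 10.2% of all genes rose. With monocytes 2 rose and 3 fell, where 14.7% of all genes rose and 12.7% fell. The macrophage gene Mrc1 averaged 32.9 ± 9.27 CPM with TRMs, 39.2 ± 7.49 CPM with monocytes and 5.13 ± 0.211 CPM alone. F13a1, which rose in both co-cultures as Mrc1 did, averaged 13.4 ± 3.82, 13.4 ± 5.38 and 0.96 ± 0.303 CPM in the same order. Ptprc, the leukocyte antigen CD45, averaged 1.95 ± 2.19 CPM with TRMs, 0.241 ± 0.287 CPM with monocytes and 1.93 ± 1.34 CPM alone. Ptprc fell with monocytes (log2 -3.82, limma adjusted p = 0.0361), a call kept in 9 of 19 alternative settings. Its monocyte value rests on 15 reads over 3 libraries. Chil3 fell with monocytes too (log2 -3.63, limma adjusted p = 0.00659). Lyz2, a lysozyme gene of macrophages, averaged 47.3 ± 31.1, 21.8 ± 7.71 and 22.3 ± 14.0 CPM in the same order. The part of myeloid RNA, or of the lower epithelial markers, in the member values was not tested. Fewer cells with a transcript and less transcript per cell cannot be told apart in these bulk libraries.

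Mcl1, the most abundant pro-survival member, was lower in both co-cultures, and the difference passed the test with monocytes. It was at 1045, 939 and 936 CPM in the TRM libraries, 734, 838 and 823 CPM in the monocyte libraries, and 1296, 1129 and 1333 CPM in the libraries of tumour cells alone. Every co-culture library lay below every library grown alone, and the 3 monocyte libraries lay below the 3 TRM libraries. With monocytes Mcl1 averaged 798 ± 56.3 CPM, against 1253 ± 109 CPM alone, a 1.57-fold lower level (log2 -0.65, SE 0.13, limma adjusted p = 0.00288). Over 19 alternative settings, that adjusted p lay between 1.32e-06 and 0.0199. With TRMs it averaged 973 ± 61.8 CPM (log2 -0.36, SE 0.13, limma adjusted p = 0.0757). That TRM difference passed the test with scaling by library totals (log2 -0.45, limma adjusted p = 0.0306) and in DESeq2 (adjusted p = 0.0142). In the authors' deposited table it had a log2 fold change of -0.39 and a false discovery rate of 0.0343.

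Bcl2l1 did not pass the test in either co-culture. It was at 278, 260 and 234 CPM in the TRM libraries, 268, 236 and 231 CPM in the monocyte libraries, and 240, 221 and 212 CPM alone. The groups overlapped, and the lowest library of each co-culture lay within the range of the tumour cells alone. The log2 difference from tumour cells alone was 0.20 with TRMs (95% interval -0.08 to 0.47, limma adjusted p = 0.318) and 0.13 with monocytes (95% interval -0.14 to 0.40, limma adjusted p = 0.486).

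Bcl2l2 was a low gene in every group. It was at 9.67, 5.69 and 7.92 CPM in the TRM libraries, 5.81, 5.30 and 3.89 CPM in the monocyte libraries, and 5.51, 6.05 and 5.12 CPM alone. The TRM libraries reached higher and overlapped with the tumour cells alone. The log2 difference was 0.45 with TRMs (95% interval -0.21 to 1.11, limma adjusted p = 0.345) and -0.17 with monocytes (95% interval -0.83 to 0.49, limma adjusted p = 0.719). Bcl2l2 shares 594 exon bases with Gm20521, a gene annotated on the same strand, so some of its reads may belong to that gene.

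**Figure D1:**
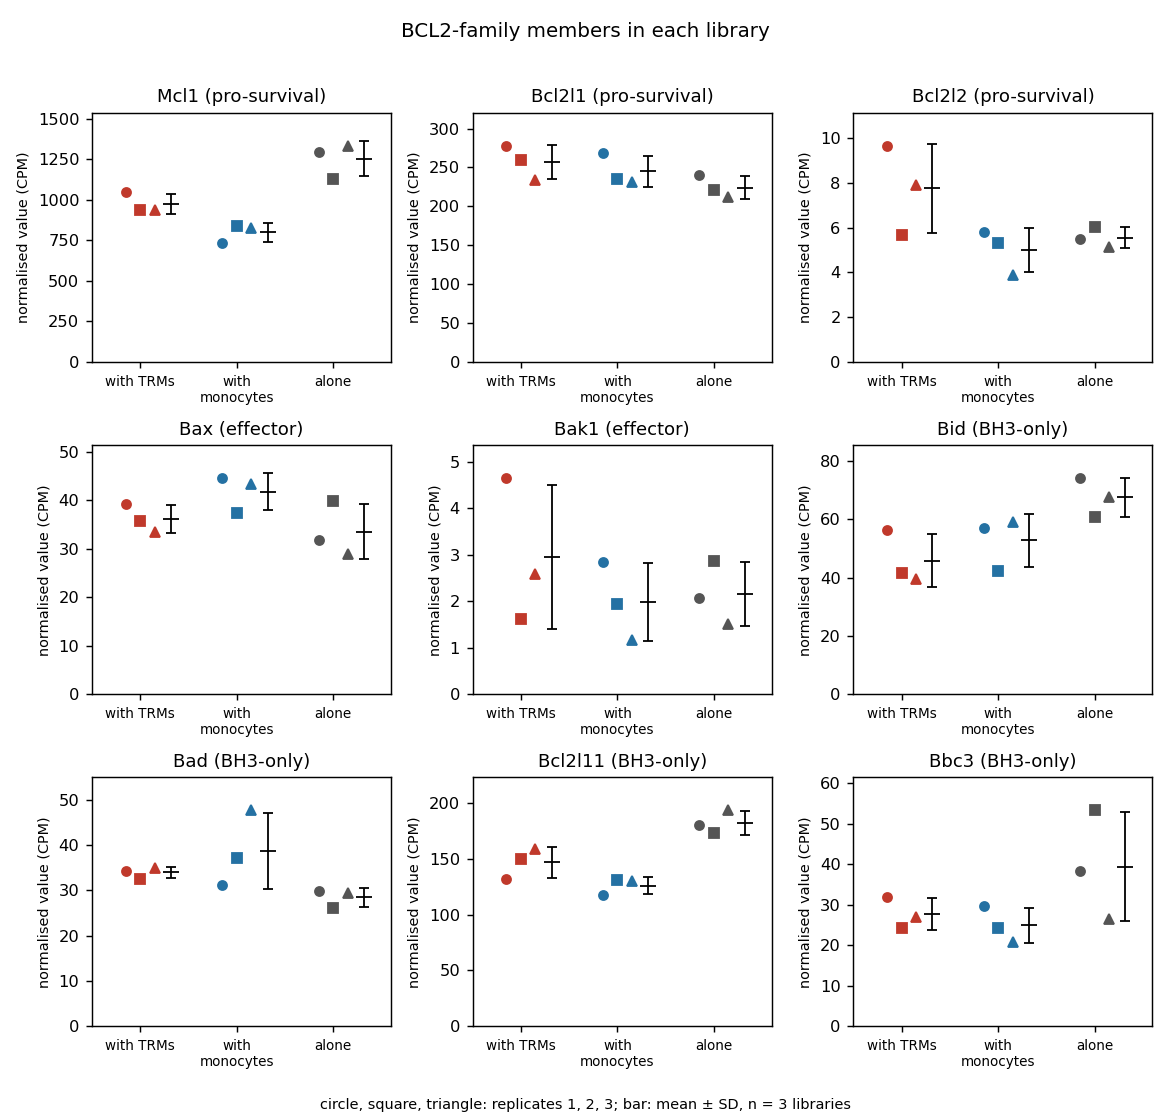
Normalised value in CPM (vertical axes, each from 0) of the 9 BCL2-family members in each library, by group, with mean ± SD beside the points (n = 3). Mcl1 and Bcl2l11 lay lower in all 6 co-culture libraries than in the 3 libraries of tumour cells alone, while Bcl2l1 and Bax overlapped between groups.

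Neither effector passed the test in either co-culture. Bax was at 39.2, 35.7 and 33.5 CPM in the TRM libraries, 44.6, 37.3 and 43.4 CPM in the monocyte libraries, and 31.8, 39.8 and 29.0 CPM alone. Alone replicate 2 lay above all 3 TRM libraries and above monocyte replicate 2, and the other two libraries grown alone lay below every co-culture library. The log2 difference was 0.12 with TRMs (95% interval -0.24 to 0.48, limma adjusted p = 0.689) and 0.33 with monocytes (95% interval -0.04 to 0.69, limma adjusted p = 0.172). Bax shares 192 exon bases with Gm45808, a gene annotated on the same strand. Bak1 was at 4.66, 1.62 and 2.59 CPM with TRMs, 2.84, 1.95 and 1.16 CPM with monocytes, and 2.07, 2.88 and 1.52 CPM alone. These values rest on 27 to 74 reads per library, and the 95% interval of the log2 difference ran from -0.79 to 1.53 with TRMs and from -1.33 to 0.99 with monocytes. Bak1 exons overlap those of Ggnbp1 on the opposite strand, and Ggnbp1 averaged 0.898 CPM with TRMs, 0.793 CPM with monocytes and 0.625 CPM alone.

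Among the BH3-only members, Bcl2l11 was lower in both co-cultures and passed the test with monocytes, as Mcl1 did. It was at 132, 150 and 159 CPM in the TRM libraries, 117, 131 and 130 CPM in the monocyte libraries, and 180, 173 and 194 CPM alone. Again every co-culture library lay below every library grown alone. With monocytes Bcl2l11 averaged 126 ± 7.48 CPM, against 182 ± 10.7 CPM alone, a 1.45-fold lower level (log2 -0.53, SE 0.13, limma adjusted p = 0.00728). Its adjusted p lay between 0.000214 and 0.0426 over the 19 alternative settings. With TRMs it averaged 147 ± 14.0 CPM (log2 -0.31, SE 0.13, limma adjusted p = 0.106), and this passed the test with scaling by library totals (log2 -0.40, limma adjusted p = 0.0367).

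Bid, whose protein links death receptors to mitochondria once caspases cut it, fell with TRMs. It was at 56.2, 41.6 and 39.7 CPM in the TRM libraries, 56.9, 42.4 and 59.2 CPM in the monocyte libraries, and 74.3, 60.8 and 67.8 CPM alone. All 6 co-culture libraries lay below the lowest library grown alone, with TRM replicate 1 and monocyte replicates 1 and 3 closest to it. With TRMs Bid averaged 45.8 ± 9.05 CPM, against 67.6 ± 6.76 CPM alone, a 1.49-fold lower level (log2 -0.57, SE 0.18, limma adjusted p = 0.0422). The call was lost when any 1 of 4 libraries was dropped, namely alone replicate 1 (limma adjusted p = 0.147) or 3 (0.117) and TRM replicate 2 (0.155) or 3 (0.148). With monocytes Bid averaged 52.8 ± 9.12 CPM (log2 -0.37, 95% interval -0.76 to 0.02, limma adjusted p = 0.154). Bid shares 628 exon bases with Bcl2l13 on the opposite strand, and Bcl2l13 did not pass the test with TRMs (log2 0.09, limma adjusted p = 0.732) or with monocytes (log2 0.26, limma adjusted p = 0.206).

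Bbc3, a BH3-only gene known as a target of p53, had its widest spread in tumour cells alone. It was at 31.9, 24.3 and 26.9 CPM in the TRM libraries, 29.5, 24.3 and 20.9 CPM in the monocyte libraries, and 38.4, 53.4 and 26.4 CPM alone. Alone replicate 3 lay inside the range of both co-cultures, and the other two libraries grown alone lay above every co-culture library. The log2 difference was -0.46 with TRMs (95% interval -0.98 to 0.06, limma adjusted p = 0.215) and -0.62 with monocytes (95% interval -1.13 to -0.10, limma adjusted p = 0.0737). The monocyte difference passed the test without alone replicate 3 (log2 -0.88, limma adjusted p = 0.0208) and in DESeq2 (adjusted p = 0.0333).

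Bad, a BH3-only gene whose protein is held inactive by phosphorylation and 14-3-3 binding, lay on the other side. It was at 34.2, 32.6 and 35.0 CPM in the TRM libraries, 31.3, 37.1 and 47.8 CPM in the monocyte libraries, and 29.96, 26.1 and 29.5 CPM alone. All co-culture libraries lay above those grown alone, monocyte replicate 3 farthest and monocyte replicate 1 nearest. The log2 difference was 0.25 with TRMs (95% interval -0.13 to 0.64, limma adjusted p = 0.359) and 0.42 with monocytes (95% interval 0.04 to 0.80, limma adjusted p = 0.0949). Without monocyte replicate 1 the monocyte difference passed the test (log2 0.57, limma adjusted p = 0.0348). Bad shares 524 exon bases with Gpr137 on the opposite strand, which averaged 35.2 CPM with TRMs, 33.7 CPM with monocytes and 26.4 CPM alone.

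**Figure D2:**
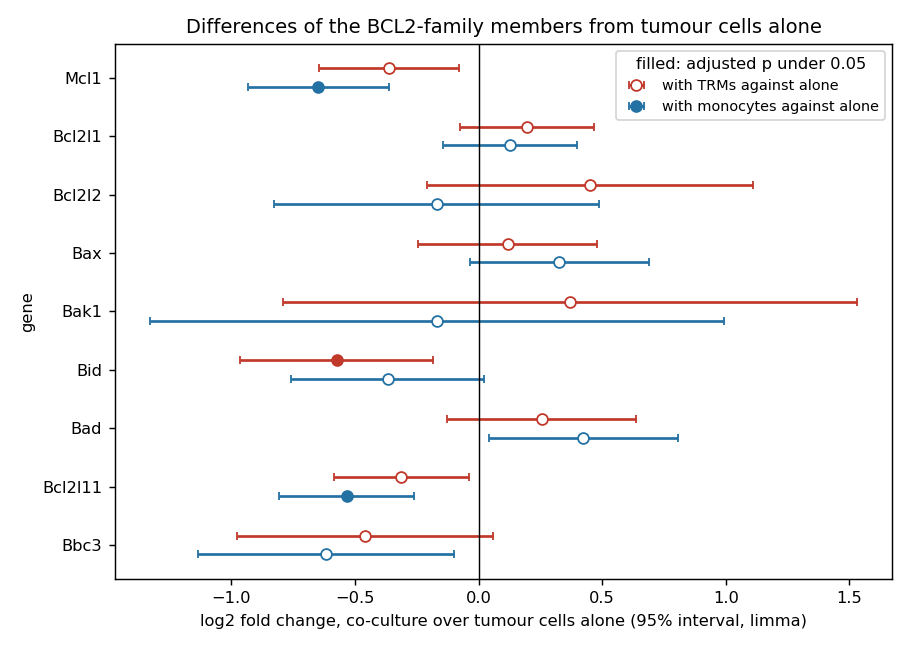
Log2 fold change of each member over tumour cells alone (horizontal axis) with its 95% interval from limma, with TRMs (upper, red) and with monocytes (lower, blue), where filled points have an adjusted p under 0.05. The filled points are Bid with TRMs (-0.57) and Mcl1 (-0.65) and Bcl2l11 (-0.53) with monocytes, all to the left of 0.

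Counted over the 9 members, 1 fell with TRMs and none rose, where 8.15% of all genes fell and 10.2% rose. The count with TRMs was 0 when alone replicate 1, alone replicate 3, TRM replicate 2 or TRM replicate 3 was dropped, 3 with scaling by library totals and 2 in DESeq2. With monocytes 2 of 9 fell and none rose, where 12.7% of all genes fell and 14.7% rose. The share of members called in either direction was therefore near the background of 18.4% with TRMs and 27.3% with monocytes. In each comparison 4 of the 9 members had groups that did not overlap, against 39.3% of all genes with TRMs and 40.5% with monocytes. Bad was the 1 that lay higher and Mcl1, Bcl2l11 and Bid were the 3 that lay lower, where 20.8% of all genes lay higher and 18.5% lower with TRMs, and 21.3% higher and 19.2% lower with monocytes. The median log2 difference of the members was 0.118 with TRMs and -0.170 with monocytes, and the medians over all genes were -0.002 and -0.016. Both comparisons share the libraries of tumour cells alone.

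Over all genes limma called 1257 higher and 1005 lower with TRMs, and scaling by library totals turned this into 1003 higher and 1302 lower. The total of 2262 genes with TRMs shrank when a library was dropped, to 1442 (alone replicate 1 dropped), 1391 (alone replicate 3) or 1219 (TRM replicate 2). The total of 3366 genes with monocytes was 2239 once alone replicate 3 was dropped. Mcl1 and Bcl2l11 both passed the test with TRMs under scaling by library totals, and Mcl1 in DESeq2 too. Scaling by library totals also moved the median log2 difference of all genes with TRMs from -0.002 to -0.087.

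Set directly against each other, the co-cultures differed in no member by limma, and in none by edgeR or DESeq2. At an unadjusted p under 0.05 there was 1 member, Mcl1, which averaged 973 ± 61.8 CPM with TRMs and 798 ± 56.3 CPM with monocytes (log2 0.29, 95% interval 0.00 to 0.57, limma adjusted p = 0.424). Mcl1 and Bcl2l11 were higher in every TRM library than in any monocyte library, 2 of 9 members, where 16.2% of all genes had groups that did not overlap, 7.55% higher and 8.62% lower with TRMs. For Bcl2l11 the log2 difference was 0.22 (95% interval -0.05 to 0.49, limma adjusted p = 0.557). Mcl1 and Bcl2l11 were called with monocytes and not with TRMs, and this direct comparison did not show that the co-cultures differed in them. Across all genes this comparison called 0.398%, 40 higher (0.325%) and 9 lower (0.073%) with TRMs, and 35 higher and 16 lower under scaling by library totals. Leaving out 1 library changed that total of 49 to 27, 97 or 26 (alone replicates 1, 2 and 3), 7, 0 or 6 (TRM replicates 1, 2 and 3) and 13, 7 or 134 (monocyte replicates 1, 2 and 3).

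Levels of different genes were compared per length, as reads per kilobase of annotated exon scaled to the same sum in every library (TPM). In tumour cells alone the order was Mcl1 (1460 ± 122 TPM), Bcl2l1 (195 ± 13.4 TPM), Bcl2l11 (90.5 ± 4.85 TPM), Bax (84.8 ± 14.5 TPM), Bid (75.9 ± 7.61 TPM), Bbc3 (73.9 ± 25.7 TPM), Bad (44.4 ± 3.23 TPM), Bcl2l2 (4.95 ± 0.433 TPM) and Bak1 (3.54 ± 1.14 TPM). The ranges of Bcl2l11 and Bax, of Bax and Bid, of Bid and Bbc3, and of Bcl2l2 and Bak1 overlapped, so those neighbours were not separated. Mcl1 stood at the 99.5th percentile of genes alone, 99.3 with TRMs and 99.1 with monocytes. Bak1, at 4.52 ± 2.34 TPM with TRMs, 3.14 ± 1.44 TPM with monocytes and 3.54 ± 1.14 TPM alone, was the lowest of the 9 members in each group. Bax exceeded it 12.9 to 34.2 times in the TRM libraries, 24.2 to 58.3 times in the monocyte libraries and 21.3 to 29.4 times in the libraries grown alone. In the co-cultures Bax ranked above Bcl2l11, with 85.2 ± 5.39 against 68.2 ± 7.60 TPM with TRMs and 101 ± 9.91 against 59.8 ± 2.87 TPM with monocytes. The ranges of the pair did not overlap in either co-culture.

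**Figure D3:**
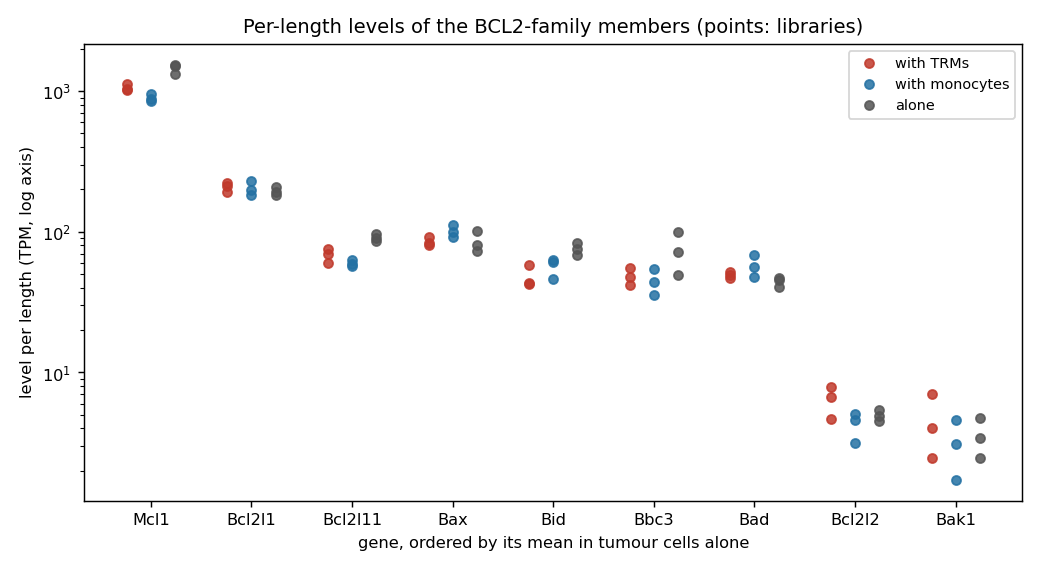
Level per length in TPM (vertical log axis) of the 9 members in each library, ordered by their mean in tumour cells alone. Mcl1 stands highest in every library, and Bcl2l2 and Bak1 lie below 10 TPM in all 9.

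Ratios of these levels within a library do not depend on how libraries are scaled to each other. The ratio of Mcl1 to Bcl2l11, a pro-survival protein and a BH3-only protein that bind each other, was 18.6, 14.7 and 13.8 in the TRM libraries, 14.7, 15 and 14.9 in the monocyte libraries, and 16.9, 15.3 and 16.1 alone. The range with TRMs covered that of the tumour cells alone, and the 3 monocyte values lay just below it. The ratio of Mcl1 to Bcl2l1 was 5.04, 4.85 and 5.38 with TRMs, 3.67, 4.77 and 4.77 with monocytes, and 7.25, 6.86 and 8.45 alone, and neither co-culture overlapped with the tumour cells alone. Mcl1 made up 82.6% to 83.9% of the pro-survival members' summed TPM with TRMs, 78.2% to 82.4% with monocytes and 87.0% to 89.2% alone.

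Summed by role, Bcl2l1, Mcl1 and Bcl2l2 gave 1230 to 1350 TPM with TRMs, 1060 to 1150 TPM with monocytes and 1520 to 1730 TPM alone. Bid, Bad, Bcl2l11 and Bbc3 gave 202 to 222 TPM with TRMs, 210 to 223 TPM with monocytes and 266 to 296 TPM alone. Both sums were thus lower in every co-culture library than in any library grown alone. The ratio of the pro-survival to the BH3-only sum was 5.69 to 6.10 with TRMs, 4.76 to 5.50 with monocytes and 5.14 to 6.51 alone. Each co-culture overlapped with the tumour cells alone, and the co-cultures did not overlap with each other. The ratio of the pro-survival sum to that of Bax and Bak1 was 13.8 to 14.6 with TRMs, 9.31 to 12.2 with monocytes and 14.4 to 23.0 alone. The monocyte libraries lay below those grown alone in this ratio, and the TRM libraries overlapped with them. The pro-survival sum is led by Mcl1, and all of these sums and ratios are given with no test.

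**Figure D4:**
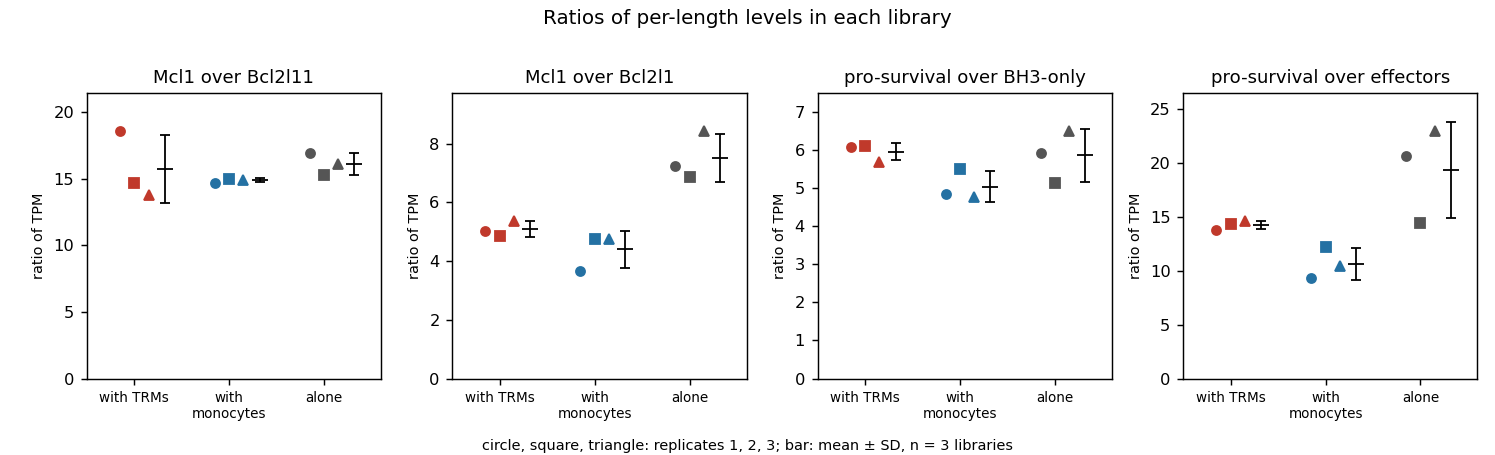
Ratios of TPM within each library (vertical axes, each from 0), by group, with mean ± SD beside the points (n = 3). Mcl1 over Bcl2l11 stayed between 13.8 and 18.6 in all 9 libraries, while Mcl1 over Bcl2l1 was at most 5.38 in the co-cultures and at least 6.86 alone.

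Further genes of the family were taken from a fixed list of 19, of which 13 were analysed. With TRMs 5 rose, 2 fell and 6 did not pass, and with monocytes 4 rose, 4 fell and 5 did not pass. Over all genes 10.2% rose and 8.15% fell with TRMs, and 14.7% rose and 12.7% fell with monocytes, and the list counts that follow stand beside these same shares. Bok, a relative of Bax and Bak1, had the clearest difference among those with a core family role. It was at 275, 213 and 205 CPM in the TRM libraries, 283, 225 and 198 CPM in the monocyte libraries, and 93.0, 100.6 and 79.6 CPM alone. The lowest co-culture library was far above the highest library grown alone. Bok rose 2.53-fold with TRMs (log2 1.34, SE 0.17, limma adjusted p = 0.000146) and 2.57-fold with monocytes (log2 1.36, SE 0.17, limma adjusted p = 8.78e-05), and both calls held in all 19 alternative settings. Per length it was at 467 ± 70.3 TPM with TRMs, 490 ± 108 TPM with monocytes and 197 ± 24 TPM alone, which put it above Bax in every library.

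Bcl2, the founding pro-survival gene, fell in both co-cultures. It was at 32.6, 31.4 and 41.5 CPM in the TRM libraries, 36.7, 36.4 and 37.0 CPM in the monocyte libraries, and 63.4, 64.3 and 70.2 CPM alone. No co-culture library reached the range of the tumour cells alone. The fall was 1.89-fold with TRMs (log2 -0.92, SE 0.15, limma adjusted p = 0.00115) and 1.80-fold with monocytes (log2 -0.84, SE 0.15, limma adjusted p = 0.00136), and held in all 19 alternative settings. Bcl2 overlaps an antisense gene, D630008O14Rik, in 558 exon bases.

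The BH3-only genes Pmaip1 and Bmf were lower as well. Pmaip1, which encodes NOXA, a partner of MCL1, was at 21.2, 11 and 15.1 CPM in the TRM libraries, 6.95, 12.7 and 19.5 CPM in the monocyte libraries, and 33.2, 31.6 and 29.9 CPM alone. It spread more widely among the libraries of each co-culture than among those grown alone, and no co-culture library reached the range of the tumour cells alone. It fell 2.07-fold with TRMs (log2 -1.05, limma adjusted p = 0.040) and 2.64-fold with monocytes (log2 -1.40, limma adjusted p = 0.0067). The TRM call was lost without alone replicate 1 (limma adjusted p = 0.107), 2 (0.0819) or 3 (0.0928), TRM replicate 2 (0.178) or 3 (0.0959), or monocyte replicate 2 (0.0527).

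Bmf, a BH3-only gene tied to loss of cell attachment, was at 52.8, 45.2 and 49.5 CPM in the TRM libraries, 33.3, 35.7 and 33.7 CPM in the monocyte libraries, and 66.1, 59.1 and 66.6 CPM alone. The 3 groups did not overlap, with TRM libraries in the middle. Bmf fell 1.87-fold with monocytes (log2 -0.90, SE 0.14, limma adjusted p = 0.000515). With TRMs the log2 difference was -0.38 (limma adjusted p = 0.0809), which passed the test with scaling by library totals (0.0389) and in DESeq2 (0.038). Between the co-cultures it was 0.52 (limma adjusted p = 0.136), with an adjusted p of 0.0227 in DESeq2.

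**Figure D5:**
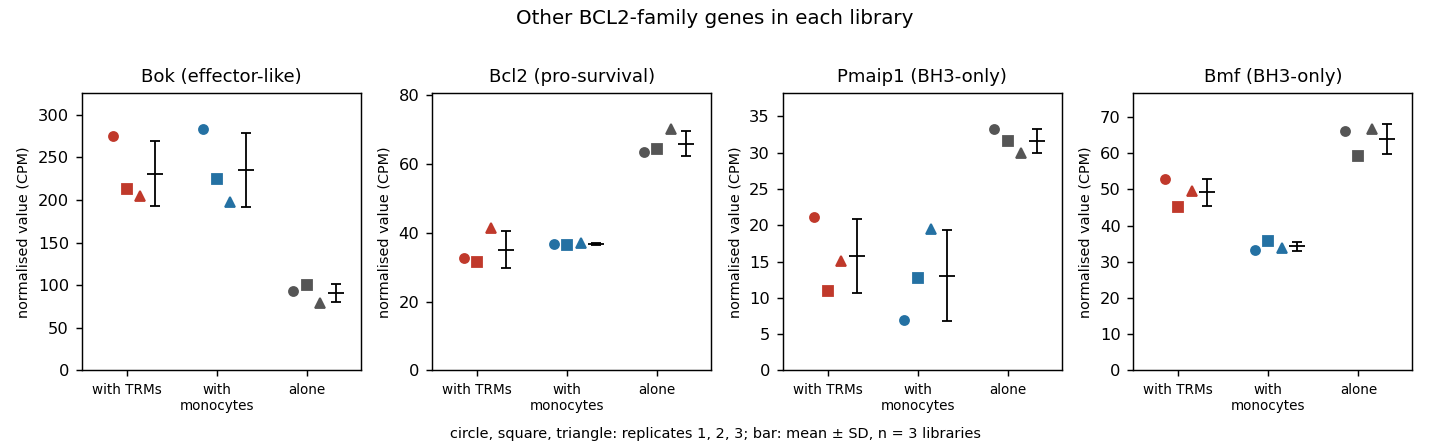
Normalised value in CPM (vertical axes, each from 0) of Bok, Bcl2, Pmaip1 and Bmf in each library, by group, with mean ± SD beside the points (n = 3). Bok stands at 198 CPM or more in all co-culture libraries and at 100.6 CPM or less alone, and the other genes lie lower in every co-culture library than alone.

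With Bcl2 added to the pro-survival sum and Bok, Pmaip1 and Bmf added to the pro-death sum, the ratio of the sums was 1.46, 1.63 and 1.61 in the TRM libraries, 1.12, 1.42 and 1.41 in the monocyte libraries, and 2.6, 2.17 and 2.91 alone. The co-cultures did not overlap with the tumour cells alone in this ratio. Without those genes it was 4.22, 4.27 and 4.10 with TRMs, 3.18, 3.79 and 3.27 with monocytes, and 4.60, 3.78 and 5.07 alone. There each co-culture overlapped with the tumour cells alone, and the co-cultures did not overlap with each other. Bok, at 391 TPM or more in every co-culture library and at most 219 TPM alone, is the most abundant of the added genes.

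Among 9 BH3-like and atypical relatives, 4 rose with TRMs, and 3 rose and 1 fell with monocytes. Bnip3, which encodes a mitophagy receptor with a BH3-like stretch, was at 121, 170 and 174 CPM with TRMs, 48.7, 71.4 and 80.7 CPM with monocytes, and 9.08, 19.5 and 14.5 CPM alone. The 3 groups did not overlap, and Bnip3 rose with TRMs (log2 3.48, limma adjusted p = 3.1e-06) and with monocytes (log2 2.26, limma adjusted p = 6.99e-05). Its log2 difference between the co-cultures was 1.22 (limma adjusted p = 0.0689), with an adjusted p between 0.000512 and 0.237 over the alternatives. Pseudogenes share over 95% of the letters of stretches of Bnip3, Bnip3l and Bnip2, so their values are less certain.

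Bnip3l, a close relative of Bnip3 in mitophagy, rose 1.70-fold with TRMs (limma adjusted p = 0.00631) and was at 76.6 ± 12.4 CPM with monocytes and 64.5 ± 8 CPM alone (log2 0.24, limma adjusted p = 0.307). Bcl2l15 shares 569 exon bases with Gm43064, a gene annotated on the same strand, so some of its reads may belong to that gene. Its value alone rests on 95 reads over 3 libraries. Bcl2l15 was at 9.41 ± 2.19 CPM with TRMs, 5.26 ± 1.06 CPM with monocytes and 1.26 ± 0.401 CPM alone, and rose in both co-cultures (limma adjusted p = 0.000177 and 0.00125). Bcl2l14 was at 14.5 ± 7.06, 9.67 ± 4.24 and 27.2 ± 6.98 CPM in the same order and fell with monocytes (log2 -1.54, limma adjusted p = 0.00659). Bnip2 rose 1.54-fold with TRMs (limma adjusted p = 0.0265) and 1.62-fold with monocytes (limma adjusted p = 0.0107). The Bnip2 call with TRMs was lost when alone replicate 1 (0.121), alone replicate 3 (0.0776), TRM replicate 2 (0.0842) or TRM replicate 3 (0.11) was dropped. Its call with monocytes was lost when alone replicate 1 (0.057) or monocyte replicate 2 (0.0514) was dropped. Becn1, Bcl2l12, Bcl2l13 and Bnipl did not pass in either co-culture, with adjusted p between 0.206 and 0.998. The Bcl2l14 difference with TRMs (log2 -0.98, limma adjusted p = 0.0787) passed the test without TRM replicate 1 (0.0205) or monocyte replicate 3 (0.0408), in limma-voom (0.0406), in a fit of the 2 groups alone (0.0436) and with the replicate number as a block (0.0321).

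The lists of other apoptosis genes were read against the shares of all genes called, 18.4% with TRMs and 27.3% with monocytes. Of 9 genes for the apoptosome and released factors 1 rose in each co-culture, Htra2, a protease released from mitochondria. It averaged 44.7 ± 1.51 CPM with TRMs, 55.9 ± 1.35 CPM with monocytes and 31.0 ± 3.11 CPM alone (limma adjusted p = 0.0209 and 0.000856). Casp8, which acts below death receptors and cuts BID, rose with monocytes (113 ± 19.2 against 78.1 ± 3.60 CPM, limma adjusted p = 0.0219) and was at 96.7 ± 9.51 CPM with TRMs (limma adjusted p = 0.194). The monocyte call of Casp8 was lost when alone replicate 1 (0.0782), alone replicate 3 (0.0653), monocyte replicate 2 (0.083) or monocyte replicate 3 (0.064) was dropped. The TRM call of Htra2 was lost when alone replicate 1 (0.0636), alone replicate 3 (0.105), TRM replicate 2 (0.0904) or TRM replicate 3 (0.0551) was dropped.

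Of 6 inhibitor-of-apoptosis genes 1 rose and 2 fell in each co-culture. Birc5, which encodes survivin and also serves in mitosis, averaged 27.2 ± 2.00 CPM with TRMs, 53.1 ± 2.61 CPM with monocytes and 9.59 ± 3.61 CPM alone (limma adjusted p = 0.000486 and 1.47e-05). Birc6, a very large ubiquitin ligase of this family, averaged 79.3 ± 5.71, 75.7 ± 3.98 and 145 ± 13 CPM in the same order (limma adjusted p = 0.000562 and 0.000234). Naip2, 1 of several near-identical copies whose reads may be split between them, fell to 2.23 ± 1.17 CPM with TRMs and 1.89 ± 0.727 CPM with monocytes, against 6.84 ± 0.631 CPM alone. Its TRM call was lost when alone replicate 1 (0.0553), 2 (0.0527) or 3 (0.0866), TRM replicate 2 (0.0628) or TRM replicate 3 (0.0893) was dropped.

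Of 9 genes of death receptor and TNF receptor signalling 2 rose with TRMs. They were the adaptor Traf2 (109 ± 11.7 against 79.2 ± 5.71 CPM, limma adjusted p = 0.0318) and the TNF receptor Tnfrsf1b (163 ± 15.3 against 117 ± 23.8 CPM, limma adjusted p = 0.0475). The Tnfrsf1b call was lost with DESeq2 size factors (0.0507), in edgeR (0.0596) and with the replicate number as a block (0.0513). Both calls were lost with scaling by library totals (0.0634 for Traf2 and 0.0832 for Tnfrsf1b) and without alone replicate 1 (0.124 and 0.201), alone replicate 2 (0.0614 and 0.109), TRM replicate 2 (0.136 and 0.158) or TRM replicate 3 (0.107 and 0.137). Traf2 was lost without alone replicate 3 (0.0624) too, and Tnfrsf1b without monocyte replicate 2 (0.0643). With monocytes limma called 0 of these 9 genes, edgeR and DESeq2 called 0, and 1 had an unadjusted p under 0.05.

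Of 22 partners and turnover factors of BCL2 proteins 3 rose and 3 fell with TRMs, and 4 rose and 3 fell with monocytes. Huwe1, a ubiquitin ligase that marks MCL1 protein for degradation, averaged 148 ± 3.52 CPM with TRMs, 145 ± 27.6 CPM with monocytes and 275 ± 13.9 CPM alone (limma adjusted p = 0.000757 and 0.000373). Vdac1, a channel of the outer mitochondrial membrane, averaged 248 ± 9.71 CPM with TRMs, 219 ± 5.92 CPM with monocytes and 143 ± 14.7 CPM alone (limma adjusted p = 0.000649 and 0.00234). The 14-3-3 genes Ywhag (log2 0.89 with TRMs and 0.74 with monocytes) and Ywhah (0.67 and 0.84) rose in both co-cultures, with adjusted p from limma between 0.000395 and 0.00415.

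Of 14 regulators of BCL2-family transcription 3 rose with TRMs, and 2 rose and 1 fell with monocytes. E2f1 averaged 57.1 ± 7.39 CPM with TRMs, 73.3 ± 10.7 CPM with monocytes and 24.2 ± 3.99 CPM alone (limma adjusted p = 0.000381 and 4.46e-05). Trp63, a relative of p53, averaged 16.7 ± 6.36, 14.4 ± 5.33 and 4.54 ± 1.62 CPM in the same order (limma adjusted p = 0.00474 and 0.00659). Cdkn1a, a p53 target that blocks the cell cycle, rose 1.58-fold with TRMs (limma adjusted p = 0.0348), where its groups overlapped, and was at 81.2 ± 5.74 CPM with monocytes and 82.7 ± 27.3 CPM alone. That call was lost with scaling by library totals (0.061), in edgeR (0.0508), and when alone replicate 1 (0.149), alone replicate 3 (0.141), TRM replicate 1 (0.117) or TRM replicate 2 (0.111) was dropped. Trp53, which activates Bbc3, Pmaip1 and Bax, averaged 3.44 ± 0.633 CPM with TRMs, 2.85 ± 1.64 CPM with monocytes and 6.44 ± 1.67 CPM alone (limma adjusted p = 0.19 and 0.0407). Its monocyte call was lost in edgeR (0.069), in a fit of the 2 groups alone (0.0695), without alone replicate 1 (0.069), 2 (0.125) or 3 (0.0853), without TRM replicate 2 (0.0587) or 3 (0.0547), and without monocyte replicate 1 (0.0754) or 2 (0.151).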

How the data were processed

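RNA of sorted tumour cells was sequenced in 9 libraries, 3 in each of 3 groups that follow the labels. STAR 2.5, edgeR and the mm10 build are listed in the submitters' processing notes; no source used here gives the counter or the annotation. The authors' table holds a normalised signal. Its values gave whole reads plus 0.5 read, in CPM of a scaled library size, for all 111051 values (100% within 1e-06 read). The authors' deposited comparison tables hold log2 fold changes, log2 levels, test scores and p-values.

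The plan was limma on log2 values if the values were scaled, and an edgeR count test if they were counts. Because they are scaled, limma 3.58.1 (R 4.3.3) with an intensity trend was fitted to log2 values of all 9 libraries. Its p-values had Benjamini-Hochberg adjustment and a threshold of 0.05. The added 0.5 read serves as pseudocount, so folds of low genes are understated. Genes under edgeR's filter (minimum count 10, total 15) were left out, 13 of 12339. edgeR 4.0.16 on recovered reads is an alternative, as are DESeq2 1.42.0, limma-voom, other scalings and filters, and leaving out each library; the closing section gives their effect. edgeR called 2183 genes with TRMs against alone, 3255 with monocytes against alone and 44 between the co-cultures. TPM used exon lengths from GENCODE M21. A simulation of 12326 genes gave each size of change to only 100 of them. There the limma fit called 48% to 52% of the 2-fold differences and 83% to 84% of the 4-fold differences. Against tumour cells alone, 18.4% of genes were called with TRMs and 27.3% with monocytes. The adjustment depends on how many genes differ, so the simulated shares do not give the share of differences missed in those comparisons. Smaller changes were not simulated.

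Members and lists were chosen with earlier results of these data known. All members and other family genes were named, and at most 4 called genes per wider list and comparison, by smallest p. The library kit is not stated to mark strand. A called gene of the wider lists is not reported here.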

Additional observations from a re-analysis of the deposited data

How the results depend on the processing

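Under 19 alternatives the 27 member results gave 513 values, of which 499 kept direction and call, 4 lost the call, 6 gained it and 4 turned direction. The cause of the changes was not tested. With TRMs, the count of called members was 3 with scaling by library totals, 2 in DESeq2 and 0 to 1 when 1 library was left out. Called genes then numbered 1219 to 2593 with TRMs, 2239 to 3529 with monocytes and 0 to 134 between the co-cultures. The last count was 75 with log2(value + 1), 336 in DESeq2, 86 in limma-voom and 79 with the replicate block. With the replicate number as a block, 2392 genes were called with TRMs and 3511 with monocytes, and 1, 2 and 0 members in the 3 comparisons. Same-numbered libraries correlated at -0.025 to 0.429 in their deviations from group means, and 4 of 9 libraries correlated best with their own number in both other groups. These values do not settle whether the numbers pair libraries, and the main fit did not use the numbers.

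The log2 differences below turned sign; none had passed the test. For Bcl2l12 with TRMs it was -0.083 with library totals and -0.010 with DESeq2 size factors, for Becn1 between co-cultures -0.019 with library totals, for Ptprc with TRMs 0.0028 in edgeR, and for Lyz2 with monocytes -0.038 in edgeR and -0.047 in DESeq2. With 1 library left out, the range with TRMs was -0.026 to 0.736 for Bak1, -0.200 to 0.329 for Bcl2l12, -0.031 to 0.209 for Bcl2l13, -0.309 to 0.562 for Bnipl, -1.32 to 0.259 for Ptprc and -0.055 to 0.302 for Epcam. With monocytes it was -0.474 to 0.174 for Bak1, -0.289 to 0.00034 for Bcl2l2, -0.304 to 1.075 for Bnipl and -0.508 to 0.654 for Lyz2. Between the co-cultures it was -0.198 to 0.0022 for Bcl2, -0.154 to 0.119 for Bok, -0.048 to 0.695 for Pmaip1, -0.016 to 0.081 for Becn1, -0.183 to 0.054 for Bnip2, -0.919 to 0.460 for Bnipl and -0.017 to 0.863 for Trp53.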
